A study of Homo sapiens with 32 samples.

Results

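The genes described here are the 29 that remained of the study's early/transient sets 1 and 2 after others were put aside by name. They were followed across 16 tamoxifen-treated ZR-75-1 xenografts. The study grouped 333 probes by their time course into 6 sets, and sets 1 and 2 hold 65 probes of 53 genes. From these, 24 genes were put aside by name, among them the mitotic kinases, cyclin A2, MKI67, the MCM helicase subunits, RRM2, MYBL1 and IGFBP4. The remaining 33 probes of 29 genes are the members, with 19 probes of 17 genes in set 1 and 14 probes of 12 genes in set 2, out of 9912 probes on the array. The choice of the members used the same log2 ratios that are given below, on every day, so these values describe the members. The calls of the fit over all probes are printed beside them as a description and are no independent test of a member.

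ZR-75-1 is an established line of human breast cancer cells with the estrogen receptor. It was grown under the skin of female nu/nu mice, which lack a thymus but keep their own fibroblasts, vessels and innate immune cells, so each tumor also holds mouse cells. Every mouse, control or treated, received estradiol (E2) from a slow-release pellet. The treated mice in addition received 2.5 mg of tamoxifen released over 60 days and were sacrificed on day 1 (4 tumors from 2 mice), day 2 (2 tumors from 2 mice), day 4 (4 tumors from 3 mice), day 7 (4 tumors from 3 mice) or day 14 (2 tumors from 2 mice). Each tumor's RNA was compared with the same pool of RNA from E2-only xenografts of days 0, 1, 2 and 4 on 2-colour cDNA arrays, once in each dye orientation. All values are log2 ratios of tumor over control pool, averaged over both orientations unless stated otherwise, and negative values are below the pool. The model is 1 cell line, the pool is 1 sample whose own spread is not measured, and no single E2-only tumor was on an array. The pool mixes tumors of days 0, 1, 2 and 4 and has none of days 7 and 14. No day has its own E2-only control, so an effect of tamoxifen and one of time cannot be told apart. In whole tumors, fewer cells of a type and less RNA per cell cannot be told apart either.

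The dyes of the file columns are not named. The direction is therefore called likely: the sign used here gives a positive correlation with the deposited ratio table on all 32 arrays, and sets 1 and 2 are described by the study as repressed. Every sign turns if the columns are the channels as the labels number them. The dye-swap array labelled day 4 replicate 4 was left out because its raw channel ratios followed those of another array (r = 0.980 across probes, which are not independent), so the tumor called day 4 replicate 3 rests on its forward array alone, and 31 of the 32 arrays were used. Gene names exist for the 333 listed probes only. Of 18 markers of luminal epithelium, 8 have a named probe (MUC1, CLDN4, CD24, ERBB3, SPINT1, PRSS8, TFF1 and TFF3), while KRT8, KRT18, EPCAM and ESR1 have none, so the cell type could be checked only in part, and only as a ratio to a pool of the same line. The median log2 ratio of these 8 was 0.35, 0.32, 0.040, 0.31 and 0.70 on the 5 days in turn, but they did not move together. On day 1, 3 were called lower and 3 higher, and on day 14, 2 were called lower (TFF1 at -2.11 and TFF3 at -1.94) and 5 higher, among them CD24 at 1.24 and MUC1 at 1.02. Of 26 markers of fibroblasts and matrix 6 are named, and of 11 endothelial, 15 macrophage and leukocyte and 8 adipocyte markers none is. The 1 named erythroid marker of 8, HBG1, had day means of -0.79, -1.18, -1.10, 0.091 and -1.11. The part of other cell types in the values below was not tested.

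Estrogen drives the division of breast cancer cells that carry its receptor, and tamoxifen competes with it for that receptor. Cells that leave the cycle make less of the enzymes that supply thymidine for DNA, of the factors that license and clamp replication, and of the proteins that build the spindle and kinetochore, which are made mainly in S, G2 and M phase under E2F and the DREAM and MuvB complexes. Other genes answer estrogen more directly, through receptor binding at distant enhancers, among them scaffold, chaperone and secretory genes that mark the luminal estrogen response.

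To show the sequence in which such factors could bind, the 250 bases before the transcription start of 24 members were read from RefSeq promoters of build GRCh38.p14. GGH, FABP5, MGLL, HMGB2 and LGALS1 had no entry. Both strands were searched for 6 motifs, and no match of one motif overlapped a match of another in these promoters. The 5 stretches printed here are all those that hold an E2F motif (TTTCCCGC, TTTCGCGC, TTTGCCGC or TTTGGCGC) or the cell cycle homology region (TTTGAA or TTCGAA), each 130 bases long and 5′ to 3′ on the gene's strand. Capitals mark these motifs, in either orientation, and in STMN1 and ZWINT also the CCAAT box.
TYMS: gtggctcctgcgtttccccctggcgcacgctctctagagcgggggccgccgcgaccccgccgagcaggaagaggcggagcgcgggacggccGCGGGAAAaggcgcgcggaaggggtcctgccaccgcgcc
STMN1: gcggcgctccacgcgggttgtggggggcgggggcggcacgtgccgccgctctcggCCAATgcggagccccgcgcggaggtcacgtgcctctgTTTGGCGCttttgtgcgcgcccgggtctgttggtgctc
ZWINT: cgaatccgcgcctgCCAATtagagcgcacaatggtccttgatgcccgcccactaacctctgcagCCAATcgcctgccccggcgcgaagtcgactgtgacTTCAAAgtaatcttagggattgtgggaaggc
CITED1: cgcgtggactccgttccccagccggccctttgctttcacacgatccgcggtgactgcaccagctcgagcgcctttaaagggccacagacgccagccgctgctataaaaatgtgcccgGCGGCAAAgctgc
FKBP5: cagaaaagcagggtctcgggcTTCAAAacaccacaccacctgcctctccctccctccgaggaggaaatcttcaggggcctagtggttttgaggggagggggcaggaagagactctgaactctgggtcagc
The first 4 end at the base before the start site used, and that of FKBP5 covers bases 220 to 91 upstream. They lie at chr18:657523-657652 on the plus strand for TYMS, chr1:25906420-25906549 on the minus strand for STMN1, chr10:56361260-56361389 on the minus strand for ZWINT, chrX:72307158-72307287 on the minus strand for CITED1 and chr6:35728674-35728803 on the minus strand for FKBP5. For STMN1 and ZWINT the RefSeq gene begins further upstream, at base 25906880 and base 56361273. The stretch of STMN1 thus lies wholly within the gene and that of ZWINT in part. An E2F motif was found in 3 of 24 members (12.5%) and in 2.79% of all 35116 promoters of the same length (3.48% of the protein-coding ones). The cell cycle homology region was found in 2 of 24 (8.33%) and 14.3% of all promoters (12.1% of the protein-coding ones). CCAAT was found in 10 members (41.7%) and 32.0% of all promoters (32.7% of the protein-coding ones). The SP1 box GGGCGG was found in 18 members (75%) and 42.6% of all promoters (53.7% of the protein-coding ones). The metal response element (TGCACNC or TGCGCNC), the site of the zinc-sensing factor MTF1, was in 12 members (50%), among them the zinc exporter SLC30A1. It was in 24.8% of all promoters (28.4% of the protein-coding ones). The full estrogen response element, with the arms GGTCA and TGACC 3 bases apart, was in none of the 24 and in 0.0399% of all promoters. These are matches of letters only, and their absence says only that the letters are not in this window.

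With tamoxifen, the median log2 ratio of the 29 genes was -0.60 on day 1, -0.60 on day 2, -0.19 on day 4, -0.29 on day 7 and -0.63 on day 14, so that it was closest to the pool on day 4. The median of all 9912 probes stayed within 0.0071 of 0 on every day. The day mean was below 0 for 29 of the 29 genes on days 1, 2 and 14, for 27 on day 4 and for 28 on day 7. Every tumor of the day was below 0 for 26 genes on day 1, 29 on day 2, 14 on day 4, 21 on day 7 and 27 on day 14. Of all 9912 probes, 48.7% to 51.2% had a day mean below 0. Those below 0 in every tumor numbered 1660, 2723, 923, 1141 and 3407 on the 5 days in turn. Days 2 and 14 have 2 tumors each and the other days 4, so these counts cannot be compared directly between days. At an adjusted p under 0.05 from limma, 24 members were called lower on day 1 beside 3.59% of all probes, 7 on day 2 beside 0.636%, 5 on day 4 beside 0.696%, 3 on day 7 beside 0.494% and 16 on day 14 beside 2.96%, and none was called higher. Since the members were picked on these contrasts, nothing is read from the counts. The study listed probes by a 1.5-fold change and a p no higher than 0.05, without saying whether that p was adjusted. With an unadjusted p, all 33 member probes reached both limits here on 1 day or more. The member nearest to that fold (0.585 on the log2 scale) was SFI1 with 0.61, while 411 unlisted probes also reached both limits and the nearest unlisted probe outside the fold had 0.584.

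The members of the 2 sets followed different courses. The 17 genes of set 1 had medians of -0.45, -0.61, -0.11, -0.26 and -0.65 on the 5 days in turn, and thus 2 low phases with days near the pool between them. The 12 genes of set 2 had medians of -0.72, -0.55, -0.47, -0.44 and -0.43, with the lowest value on the first day. The difference of day 4 minus day 2 was positive for all 17 genes of set 1, with a median of 0.47, and that of day 14 minus day 7 was negative for all 17, with a median of -0.42. For the 12 genes of set 2 the medians of these differences were 0.094 and -0.017, and 4 and 6 of the genes had negative ones. The sets were built on these courses, so the contrast between them is how they were defined. The 24 genes put aside had medians of -0.51, -0.71, -0.22, -0.27 and -0.68, beside -0.60, -0.60, -0.19, -0.29 and -0.63 for the members.

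**Figure D1:**
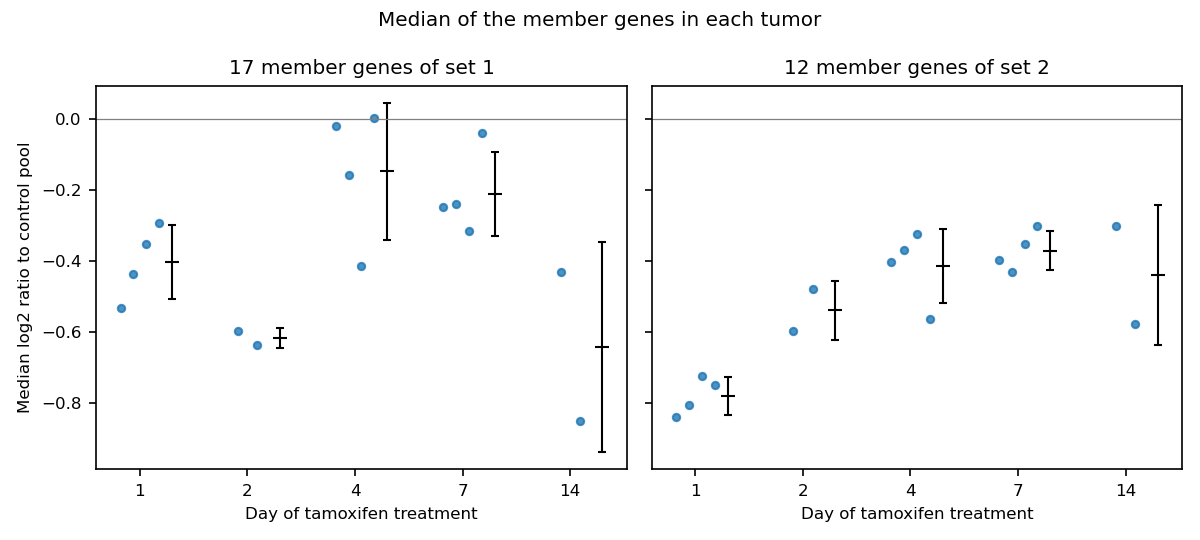
The vertical axis gives the median log2 ratio to the control pool, over the 17 members of set 1 (left) and the 12 of set 2 (right), in each of 16 tumors (points) by day of tamoxifen treatment, with the mean and SD per day in black. Set 1 lay between -0.64 and -0.60 on day 2 and between -0.42 and 0.0023 on day 4, whereas set 2 lay below 0 in every tumor.

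Tumors of one day did not always lie together. On day 4 the median of the set 1 members was -0.42 in replicate 3, the tumor with only a forward array, and -0.019, -0.16 and 0.0023 in replicates 1, 2 and 5. On day 14 it was -0.43 in replicate 1 and -0.85 in replicate 2. Without day 14 replicate 2 no member was called on day 14, and without replicate 1 there were 9. On day 1, 12 members were called without replicate 1 and 15 without replicate 2, which come from the same mouse, and 6 when the tumors of a mouse were averaged first. On day 2, no member was called without replicate 1, 4 without replicate 2, 4 without day 4 replicate 1 and 11 without day 4 replicate 3. On day 4, 2 were called without replicate 2. On day 7, 1 was called without day 1 replicate 2, day 4 replicate 1 or day 7 replicate 1, 2 or 4, 6 without day 4 replicate 3 and 5 without day 4 replicate 5.

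**Figure D2:**
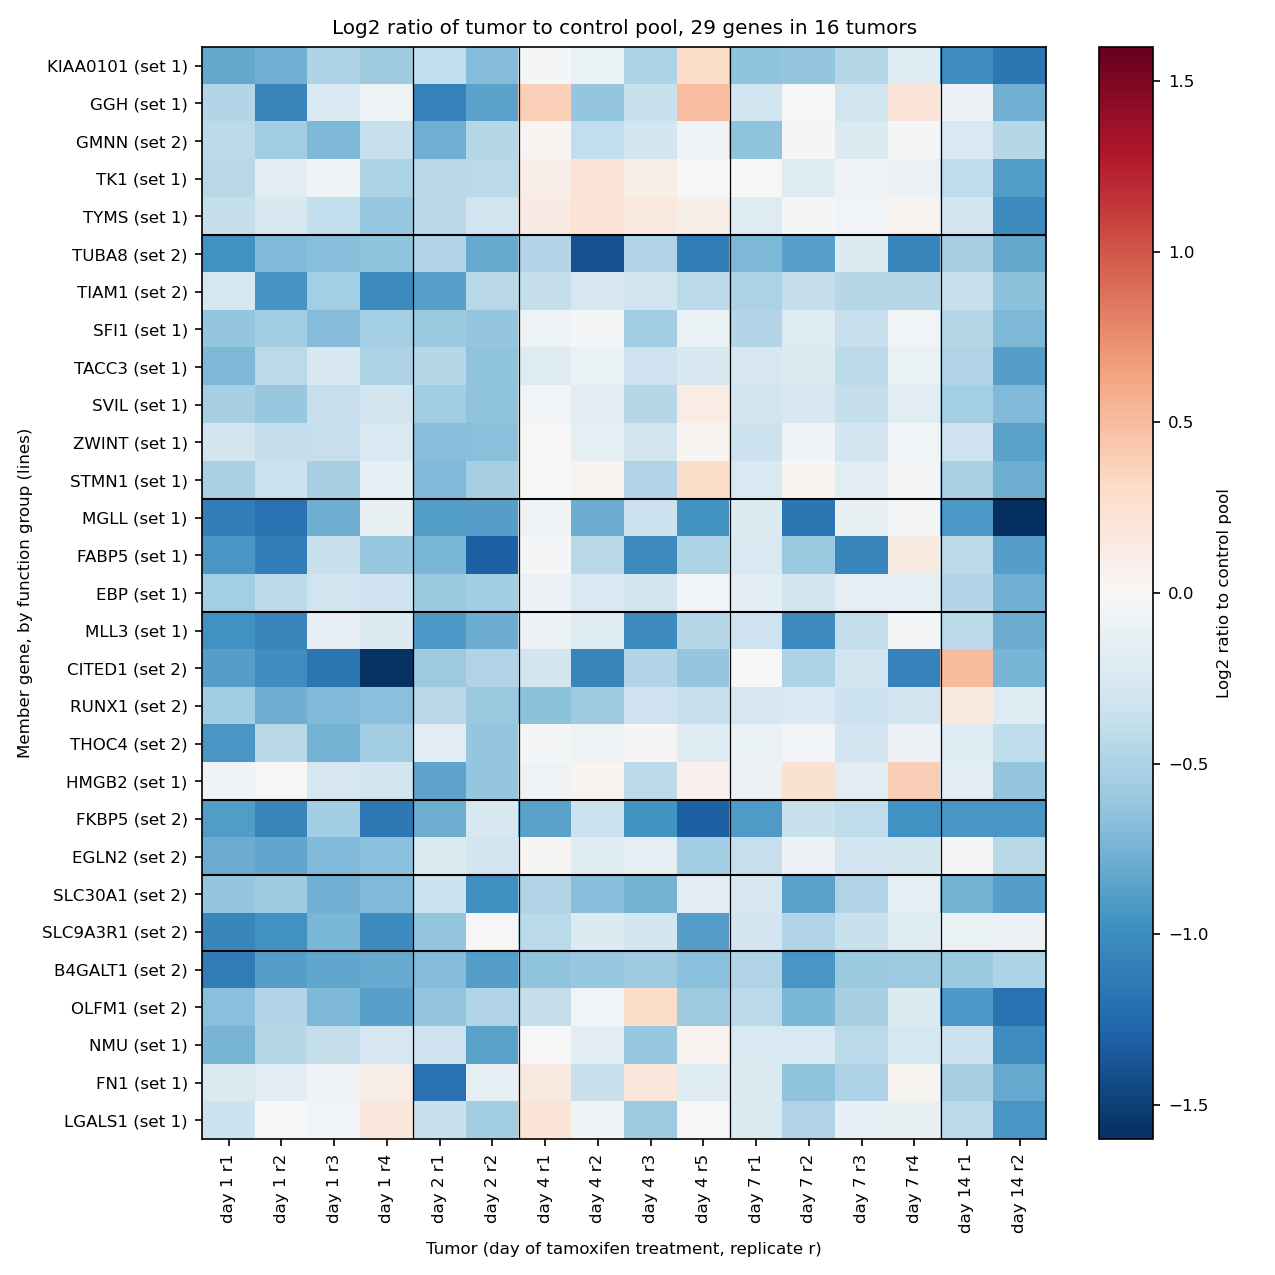
Log2 ratio to the control pool (colour, blue below and red above the pool) of the 29 genes (rows, grouped by function between the black lines, with their set) in 16 tumors (columns, by day and replicate r). The day means of all 29 genes are below 0 on days 1, 2 and 14, with the lowest tumors at -1.59 for CITED1 and MGLL, while a single tumor can be above 0, as CITED1 is at 0.50 on day 14. On day 4 TYMS and TK1 are above 0 in every tumor.

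The 2 dye orientations gave different sizes. The median of the 29 day means was -0.72 on forward and -0.46 on dye-swap arrays on day 1, -0.63 and -0.55 on day 2, -0.29 and -0.027 on day 4, -0.41 and -0.18 on day 7, and -0.71 and -0.53 on day 14. The forward value was the lower one for 19 to 23 of the 29 genes on each day. On day 4 the dye swaps put 16 genes below the pool and the forward arrays 24, and 15 genes had the same sign in both, against 26 or 27 genes on days 1, 2 and 14. The means had opposite signs, for example, for STMN1 on day 4 (-0.23 forward, 0.39 dye-swap), GGH on day 4 (-0.29 and 0.44) and FABP5 on day 7 (-0.74 and 0.17). Over all probes the orientations of a tumor correlated between -0.28 and 0.47 in the 15 tumors that have both. On day 4, 20 of the 29 genes had a lower forward than dye-swap value. THOC4 (0.14 forward, -0.39 dye-swap), OLFM1 (0.099 and -0.70) and EGLN2 (0.071 and -0.64) were among those with the reverse order. Many near-pool values of that day are thus means of unlike ratios. The dye's part in them was not tested.

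**Figure D3:**
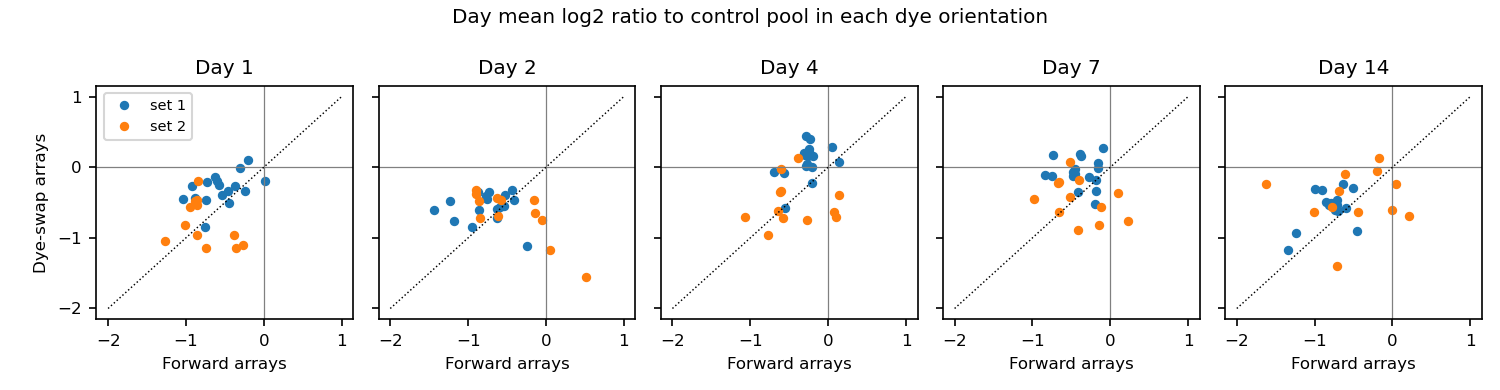
Mean log2 ratio to the control pool of each member gene on a day from forward arrays (horizontal axis) and from dye-swap arrays (vertical axis), 1 panel per day, set 1 in blue and set 2 in orange, with the dotted line where both are equal. Most points lie below 0 on both axes on days 1, 2 and 14, whereas on day 4 13 of 29 dye-swap means are at or above 0.

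The 5 genes of DNA synthesis and replication control had medians of -0.47, -0.54, -0.025, -0.10 and -0.65 on the 5 days. They came closest to the pool on day 4 and were low again on day 14. TYMS, thymidylate synthase, makes dTMP for DNA, and TK1, the cytosolic thymidine kinase, supplies dTMP through the salvage route. TYMS had log2 ratios of -0.38, -0.26, -0.40 and -0.61 in the 4 tumors of day 1, -0.44 and -0.32 on day 2, 0.13, 0.22, 0.16 and 0.094 on day 4, -0.21, -0.02, -0.038 and 0.057 on day 7 and -0.29 and -1.02 on day 14. All tumors of days 1, 2 and 14 were below the pool and all 4 of day 4 above it, so these days do not overlap, while day 7 lay around the pool. The day mean of TYMS went from -0.41 ± 0.14 (SD, n = 4) on day 1 to 0.15 ± 0.054 (SD, n = 4) on day 4 and -0.66 ± 0.52 (SD, n = 2) on day 14. TK1 ratios were -0.44, -0.17, -0.053 and -0.50 in the 4 tumors of day 1, -0.45 and -0.43 on day 2, 0.10, 0.23, 0.091 and 0.0023 on day 4, 0.0032, -0.19, -0.061 and -0.089 on day 7 and -0.41 and -0.89 on day 14. Its 4 tumors of day 4 were likewise at or above the pool and all tumors of days 1, 2 and 14 below it, with day 14 replicate 2 the lowest, as for TYMS. The TK1 means were -0.29 ± 0.22 (SD, n = 4) on day 1, 0.11 ± 0.095 (SD, n = 4) on day 4 and -0.65 ± 0.34 (SD, n = 2) on day 14.

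KIAA0101, now named PCLAF, binds the sliding clamp PCNA during replication and repair. Its brightest probe gave -0.81, -0.77, -0.49 and -0.57 in the 4 tumors of day 1, -0.39 and -0.69 on day 2, -0.035, -0.10, -0.50 and 0.29 on day 4, -0.64, -0.61, -0.45 and -0.19 on day 7 and -0.999 and -1.16 on day 14. Only day 4 replicate 5 was above the pool, and both tumors of day 14 were lower than any other tumor, with a mean of -1.08 ± 0.12 (SD, n = 2). Its second probe had means of -0.55, -0.77, 0.017, -0.45 and -1.02 on the 5 days, and the 2 probes differed by a median of 0.068 over the tumors. GGH, gamma-glutamyl hydrolase, cuts the glutamate tail that keeps folates in the cell. The GGH ratios were -0.47, -1.06, -0.24 and -0.081 in the 4 tumors of day 1, -1.08 and -0.85 on day 2, 0.39, -0.62, -0.36 and 0.49 on day 4, -0.31, -0.0017, -0.32 and 0.21 on day 7 and -0.093 and -0.77 on day 14. They spread widely, with day 4 running from below to above the pool and an SD of 0.55 there. A further GGH probe, listed in set 3, had means of -0.41, 0.28, 0.01, -0.22 and -0.87 on the 5 days. The GGH probes thus point in opposite directions on day 2, and GGH is given with that doubt. GMNN, geminin, blocks the licensing factor CDT1 until mitosis, and its day means ran from -0.61 on day 2 to -0.19 on day 4, with 15 of 16 tumors below the pool.

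**Figure D4:**
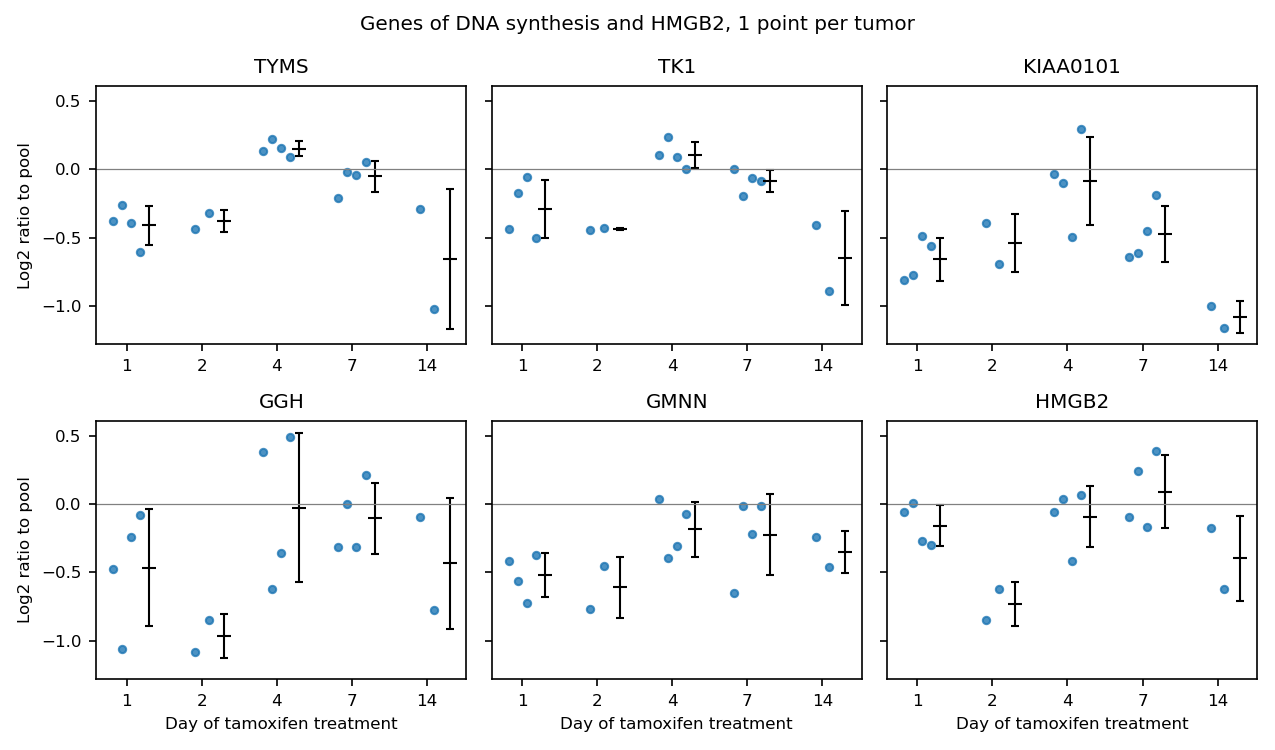
Each panel plots, as log2 ratio to the control pool on its vertical axis, 1 of 5 genes of DNA synthesis or HMGB2 in each tumor (points) by day of tamoxifen treatment, with the mean and SD of the day in black. TYMS and TK1 lie below 0 in every tumor of days 1, 2 and 14 and above it on day 4.

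Of 47 genes of a DNA synthesis list that holds these 5, 12 have a named probe, with the brightest named probe of any set standing for a gene here. Of the 7 that are no members (MCM2, MCM6, RRM2, CTPS, PAICS, HPRT1 and RBBP8), 5 were called lower on day 1, 0 on day 2, 1 on day 4, 0 on day 7 and 6 on day 14, and 0 were called higher on any day. RRM2, a subunit of the reductase that makes deoxynucleotides, had means of -0.52 on day 1, 0.12 on day 4 and -0.81 on day 14, the order also seen in TYMS and TK1. MCM2, a subunit of the replicative helicase, had -0.61, -0.24 and -0.48 on the same days. Names exist only for probes that the study listed as changed, so the counts of this and every other gene list hold no unchanged genes. Over all 9912 probes, the shares called lower were 3.59%, 0.636%, 0.696%, 0.494% and 2.96% on the 5 days in turn. Those called higher were 3%, 0.141%, 0.373%, 0.242% and 3.33%.

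Across days, 3 of the 29 members were called for the difference of day 14 minus day 4, all 3 of them in this group, beside 0.161% of all probes called lower and 0.202% called higher. The difference was -0.995 for KIAA0101 (SE 0.19), -0.81 for TYMS (SE 0.17) and -0.76 for TK1 (SE 0.16). On day 4 the mean of KIAA0101 was -0.24 on forward and 0.26 on dye-swap arrays. Differences between days were not rerun in the 32 alternative settings, so how far these calls depend on the processing or on 1 tumor is not known. No member was called for day 2 minus day 1, day 4 minus day 2, day 7 minus day 4, day 14 minus day 7 or day 14 minus day 1. Among all probes limma called 0 for the first 3 of these 5 differences, and for day 14 minus day 7 it called 0.0807% higher. For the first 3, 754, 687 and 523 probes had an unadjusted p under 0.05. Over 9912 probes many pass that limit by chance, so nothing is read from these numbers. The pool cancels in such a difference, but time without tamoxifen does not.

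The 7 genes of the spindle, kinetochore and cytoskeleton had medians of -0.48, -0.62, -0.19, -0.27 and -0.63 on the 5 days. Within the group, 5 genes of set 1 followed the course with 2 low phases. STMN1, stathmin, binds tubulin dimers and destabilizes microtubules, and its means ran from -0.65 on day 14 to -0.029 on day 4. ZWINT, which holds the ZW10 complex at the kinetochore, had means from -0.68 on day 2 to -0.11 on day 4. TACC3, an Aurora A substrate that strengthens spindle microtubules, was below the pool in 16 of 16 tumors, with means from -0.68 on day 14 to -0.23 on day 4. SFI1, a centrin-binding protein of the centrosome, was also below the pool in all 16, with means from -0.61 on day 2 to -0.19 on day 4. The promoter stretches of STMN1 and ZWINT printed above each hold a CCAAT box and, nearer to the start site, an E2F motif or a cell cycle homology region.

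TUBA8 and TIAM1, both of set 2, were the lowest of the group over the 5 days. TUBA8 encodes an alpha tubulin, and a cDNA spot can also bind transcripts of other alpha tubulins. TUBA8 ratios were -0.97, -0.70, -0.68 and -0.65 in the 4 tumors of day 1, -0.48 and -0.81 on day 2, -0.47, -1.39, -0.48 and -1.12 on day 4, -0.71, -0.87, -0.22 and -1.05 on day 7 and -0.53 and -0.82 on day 14. All 16 tumors were below the pool, without the median near the pool that set 1 had on day 4, and day 4 replicate 2 was the lowest. The TUBA8 mean was -0.75 ± 0.15 (SD, n = 4) on day 1 and -0.67 ± 0.21 (SD, n = 2) on day 14. TIAM1 activates the small GTPase RAC1 and with it actin remodeling. TIAM1 was at -0.28, -0.94, -0.55 and -1.01 in the 4 tumors of day 1, -0.87 and -0.44 on day 2, -0.38, -0.27, -0.32 and -0.44 on day 4, -0.51, -0.38, -0.46 and -0.45 on day 7 and -0.36 and -0.66 on day 14. Its 16 tumors were all below the pool, within a narrow band on days 4 and 7 (SD 0.072 and 0.053, n = 4 each). These SDs cover tumors only. The forward and dye-swap means of TIAM1 were -0.60 and -0.027 on day 4 and -0.68 and -0.22 on day 7. TIAM1 and TUBA8 had the dimmest spots of the members, with a median signal of 3.14 and 3.33 times the local background.

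SVIL, supervillin, ties actin and myosin II to the membrane and takes part in cell division. Its set 1 probe gave -0.53, -0.61, -0.36 and -0.29 in the 4 tumors of day 1, -0.56 and -0.65 on day 2, -0.045, -0.17, -0.46 and 0.12 on day 4, -0.30, -0.26, -0.38 and -0.18 on day 7 and -0.55 and -0.71 on day 14. That probe was below the pool in 15 of 16 tumors, all but day 4 replicate 5. A second SVIL probe, listed in set 6, ran the other way, with means of 0.18, 0.28, 0.32, 0.48 and 0.87 on the 5 days. The direction of SVIL therefore depends on the probe, and on day 14 the mean of both was 0.12. Of 13 named genes in a spindle and kinetochore list of 42, 8 are no members (AURKA, BUB1B, NEK2, PRC1, KIF23, CENPF, DLG7 and NUMA1), and of these 3 were called lower on day 1, 4 on day 2, 0 on day 4, 1 on day 7 and 6 on day 14. On day 1 another of the 8 was called higher. The shares of all probes are those given with the DNA synthesis list, and only genes listed as changed have names.

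The 3 genes of lipid metabolism had medians of -0.75, -0.89, -0.50, -0.38 and -0.65 on the 5 days. MGLL, monoglyceride lipase, frees fatty acids from monoglycerides, and had the lowest mean over the days of all set 1 members. The MGLL ratios were -1.10, -1.20, -0.79 and -0.11 in the 4 tumors of day 1, -0.90 and -0.89 on day 2, -0.052, -0.80, -0.34 and -0.95 on day 4, -0.22, -1.17, -0.12 and -0.021 on day 7 and -0.92 and -1.59 on day 14. All 16 tumors were below the pool, but they spread widely, and day 7 replicate 2 was far below the other 3 tumors of its day. Its mean was -0.80 ± 0.49 (SD, n = 4) on day 1, -0.38 ± 0.53 (SD, n = 4) on day 7 and -1.25 ± 0.48 (SD, n = 2) on day 14. FABP5 carries fatty acids in the cytosol and to nuclear receptors. FABP5 stood at -0.93, -1.11, -0.35 and -0.61 in the 4 tumors of day 1, -0.73 and -1.31 on day 2, -0.019, -0.45, -1.02 and -0.51 on day 4, -0.24, -0.60, -1.05 and 0.14 on day 7 and -0.41 and -0.88 on day 14. It was below the pool in 15 of 16 tumors, day 7 replicate 4 being the exception, and the tumors of days 4 and 7 overlapped those of day 1. The FABP5 mean was lowest on day 2, at -1.02 ± 0.41 (SD, n = 2).

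EBP, the sterol isomerase of late cholesterol synthesis, has 2 probes. The brighter gave -0.54, -0.41, -0.32 and -0.33 in the 4 tumors of day 1, -0.59 and -0.56 on day 2, -0.098, -0.24, -0.29 and -0.049 on day 4, -0.18, -0.32, -0.15 and -0.15 on day 7 and -0.47 and -0.77 on day 14. Every tumor was below the pool, with those of day 4 all nearer to it than any tumor of days 1, 2 and 14, and day 7 replicate 2 just reaching into the range of day 1. The second probe had means of -0.47, -0.61, -0.16, -0.23 and -0.77 on the 5 days, and the median gap between both was 0.080. Of 9 named genes in a sterol and fatty acid list of 37, 6 are no members (DHCR7, SCD, ELOVL5, ME1, LPIN2 and SCARB1). Of these, 2 were called lower and 1 higher on day 1, 1 lower on each of days 2, 4 and 7, and 5 lower and 1 higher on day 14. Over all probes, 3.59% were called lower and 3% higher on day 1, and 2.96% and 3.33% on day 14. Here too only genes listed as changed have names.

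The 5 genes of chromatin, transcription and mRNA export had medians of -0.67, -0.53, -0.44, -0.29 and -0.30 on the 5 days. They did not move as a block. CITED1, a coactivator that binds CBP and has been tied to the estrogen receptor, gave -0.88, -0.997, -1.17 and -1.59 in the 4 tumors of day 1, -0.58 and -0.48 on day 2, -0.31, -1.07, -0.47 and -0.62 on day 4, 0.0086, -0.50, -0.31 and -1.08 on day 7 and 0.50 and -0.75 on day 14. All 4 tumors of day 1 were low and none of them overlapped those of day 2, while on day 14 one tumor was above and the other below the pool. The mean of CITED1 was -1.16 ± 0.31 (SD, n = 4) on day 1 and -0.12 ± 0.88 (SD, n = 2) on day 14. RUNX1, a transcription factor of the runt family, had means of -0.68, -0.52, -0.48, -0.29 and -0.021 on the 5 days, and 15 of 16 tumors were below the pool. THOC4, now ALYREF, hands mRNA to the export receptor, and its means ran from -0.67 on day 1 to -0.072 on day 4.

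MLL3, now KMT2C, methylates histone H3 at enhancers and is often mutated in breast cancer. MLL3 ratios were -0.97, -1.06, -0.14 and -0.22 in the 4 tumors of day 1, -0.92 and -0.79 on day 2, -0.09, -0.20, -1.01 and -0.45 on day 4, -0.34, -1.01, -0.38 and -0.015 on day 7 and -0.43 and -0.79 on day 14. All 16 tumors were below the pool, but day 1 split by mouse. Replicates 1 and 2, from one mouse, were low, and replicates 3 and 4, from the other mouse, were near the pool. The MLL3 mean on day 1 was -0.60 ± 0.49 (SD, n = 4 tumors of 2 mice), with -0.92 on forward and -0.27 on dye-swap arrays. Its day 1 call was lost in 19 of 32 alternative settings, among them 1 mean per mouse. HMGB2, a DNA-bending protein that is abundant in dividing cells, gave -0.06, 0.0051, -0.27 and -0.30 in the 4 tumors of day 1, -0.85 and -0.62 on day 2, -0.055, 0.038, -0.42 and 0.066 on day 4, -0.097, 0.24, -0.17 and 0.39 on day 7 and -0.18 and -0.62 on day 14. Both tumors of day 2 and day 14 replicate 2 were its lowest, and days 1, 4 and 7 each had tumors on both sides of the pool. HMGB2 is the 1 member with a day mean above 0 on day 7, at 0.092 ± 0.27 (SD, n = 4), against -0.73 ± 0.16 (SD, n = 2) on day 2.

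FKBP5 and EGLN2 had medians of -0.83, -0.39, -0.54, -0.46 and -0.59 on the 5 days. FKBP5 is a co-chaperone of HSP90 in steroid receptor complexes and is itself induced by glucocorticoids, androgens and progestins. FKBP5 was at -0.90, -1.05, -0.56 and -1.14 in the 4 tumors of day 1, -0.78 and -0.26 on day 2, -0.86, -0.34, -0.96 and -1.30 on day 4, -0.90, -0.35, -0.40 and -0.96 on day 7 and -0.93 and -0.94 on day 14. It was below the pool in 16 of 16 tumors, with both tumors of day 14 below both of day 2 and overlap between all other days, and had the lowest mean over the days of all 29 members. The mean was -0.91 ± 0.26 (SD, n = 4) on day 1, -0.86 ± 0.40 (SD, n = 4) on day 4 and -0.93 ± 0.0052 (SD, n = 2) on day 14. The small SD of day 14 covers tumors only, since the orientations were far apart, with means of -1.62 on forward and -0.24 on dye-swap arrays, and on day 2 they had opposite signs, 0.51 and -1.55. The calls of FKBP5 on days 1, 4 and 14 were lost on dye-swap arrays alone. EGLN2, a prolyl hydroxylase that marks the hypoxia inducible factors for destruction and is known as an estrogen-induced gene, gave -0.80, -0.83, -0.70 and -0.67 in the 4 tumors of day 1, -0.22 and -0.31 on day 2, 0.013, -0.19, -0.15 and -0.56 on day 4, -0.37, -0.098, -0.31 and -0.29 on day 7 and -0.029 and -0.45 on day 14. The 4 tumors of day 1 were all lower than any tumor of the later days. Its mean went from -0.75 ± 0.076 (SD, n = 4) on day 1 to -0.27 ± 0.058 (SD, n = 2) on day 2 and -0.24 ± 0.30 (SD, n = 2) on day 14. Its direction after day 2 depended on the orientation, with forward means of 0.071, 0.23 and 0.22 on the last 3 days against -0.64, -0.76 and -0.70 on dye swaps. On day 1 these means were -0.36 and -1.14, and the call was lost on forward arrays alone.

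**Figure D5:**
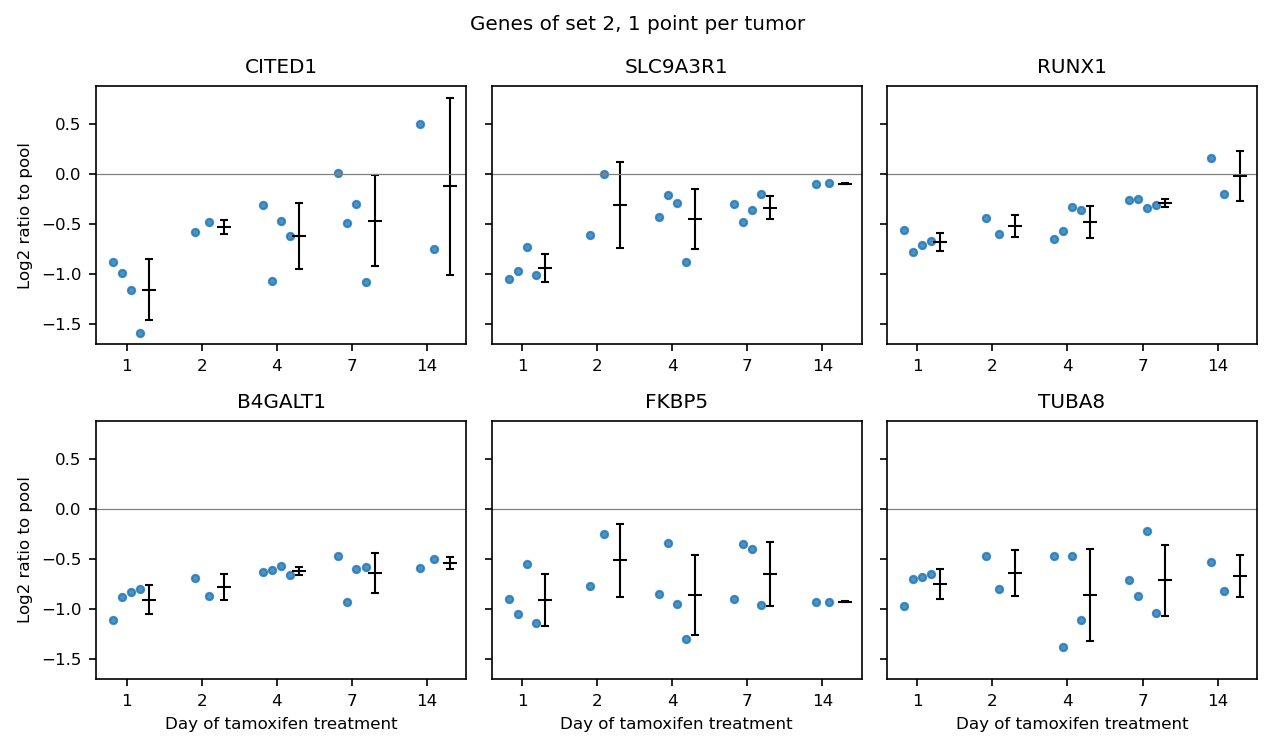
Each panel plots, as log2 ratio to the control pool on its vertical axis, 1 of 6 genes of set 2 in each tumor (points) by day of tamoxifen treatment, with the mean and SD of the day in black. CITED1, SLC9A3R1 and RUNX1 (top) were lowest on day 1 and near 0 on average on day 14, whereas B4GALT1, FKBP5 and TUBA8 (bottom) were below 0 in all 16 tumors.

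The zinc exporter SLC30A1 and the PDZ scaffold SLC9A3R1 had a joint median of -0.80, -0.49, -0.49, -0.39 and -0.46 on the 5 days. SLC30A1 moves zinc out across the plasma membrane. Its ratios were -0.61, -0.56, -0.77 and -0.70 in the 4 tumors of day 1, -0.35 and -0.99 on day 2, -0.48, -0.68, -0.75 and -0.18 on day 4, -0.26, -0.86, -0.48 and -0.14 on day 7 and -0.76 and -0.88 on day 14. All 16 tumors were below the pool, with no day set apart from the others, and the mean was -0.66 ± 0.09 (SD, n = 4) on day 1 and -0.82 ± 0.088 (SD, n = 2) on day 14. SLC9A3R1, now NHERF1, anchors transporters and receptors under the apical membrane and is known as an estrogen-induced gene. SLC9A3R1 gave -1.05, -0.97, -0.74 and -1.01 in the 4 tumors of day 1, -0.61 and -0.0037 on day 2, -0.43, -0.21, -0.29 and -0.88 on day 4, -0.31, -0.48, -0.36 and -0.20 on day 7 and -0.10 and -0.096 on day 14. The 4 tumors of day 1 lay far below both tumors of day 14, though day 4 replicate 5 reached into the range of day 1. Its mean went from -0.94 ± 0.14 (SD, n = 4) on day 1 to -0.099 ± 0.0042 (SD, n = 2) on day 14. The small SD of day 14 covers tumors only, since the means were 0.047 on forward and -0.24 on dye-swap arrays.

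Several set 2 members shared this order of a low first day and a last day nearer to the pool. The day 14 mean was -0.021 for RUNX1, but -0.24 for EGLN2 and -0.30 for THOC4. For CITED1, 1 tumor of day 14 was above the pool and 1 below it. Day 14 was higher than day 1 by 1.03 for CITED1, 0.84 for SLC9A3R1, 0.66 for RUNX1, 0.51 for EGLN2 and 0.37 for THOC4. None of these differences was called at an adjusted p under 0.05, and limma called 0.172% of all probes higher on day 14 than on day 1. In the other direction, day 14 lay below day 1 by 0.37 for OLFM1 and by 0.16 for SLC30A1. Of 19 named genes in a list of 30 estrogen receptor targets and coregulators, 6 are members (CITED1, FKBP5, EGLN2, SLC9A3R1, RUNX1 and TIAM1). Of the other 13, 5 were called lower and 1 higher on day 1, 2 lower on day 2, 5 lower on day 4, 5 lower on day 7, and 10 lower and 2 higher on day 14. The shares of all probes are those given with the DNA synthesis list, and only genes listed as changed have names.

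The 5 genes of secretion, glycosylation and matrix had medians of -0.47, -0.59, -0.18, -0.33 and -0.67 on the 5 days. B4GALT1, which adds galactose to glycoproteins in the Golgi, has 3 probes. The brightest gave -1.12, -0.88, -0.84 and -0.80 in the 4 tumors of day 1, -0.69 and -0.88 on day 2, -0.64, -0.61, -0.57 and -0.67 on day 4, -0.48, -0.94, -0.60 and -0.58 on day 7 and -0.59 and -0.50 on day 14. All 16 tumors were below the pool with little spread, and the tumors of day 14 overlapped those of days 4 and 7 but lay above all those of days 1 and 2. By this probe B4GALT1 was the only member called lower on all 5 days, with means of -0.91 ± 0.14 (SD, n = 4) on day 1, -0.62 ± 0.039 (SD, n = 4) on day 4 and -0.54 ± 0.064 (SD, n = 2) on day 14. The second probe had means of -0.95, -0.90, -0.93, -0.78 and -0.38, and the third of -0.96, -0.75, -0.95, -0.70 and -0.35 on the 5 days. The other 2 probes were not called on day 14, and the day 14 call of the brightest was lost in 7 of 32 alternative settings, among them the mean over the 3 probes and either tumor of that day left out. The 3 probes were all below the pool on each day and were furthest apart in day 4 replicate 2, by 0.63.

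OLFM1 encodes a secreted glycoprotein known from neural tissue. Its set 2 probe gave -0.67, -0.47, -0.72 and -0.87 in the 4 tumors of day 1, -0.64 and -0.48 on day 2, -0.38, -0.05, 0.29 and -0.57 on day 4, -0.43, -0.73, -0.53 and -0.22 on day 7 and -0.92 and -1.19 on day 14. It was below the pool in 15 of 16 tumors, all but day 4 replicate 3, the tumor with a forward array only, and lowest in both tumors of day 14, with a mean of -1.06 ± 0.19 (SD, n = 2). The probe read higher on forward than on dye-swap arrays on every day, with 0.054 and -1.17 on day 2 and 0.099 and -0.70 on day 4. OLFM1 has 4 further probes, all listed in set 5. The brightest of these had means of -0.94, -0.90, -0.58, -0.50 and -1.33 on the 5 days, and all 4 were below the pool on every day, the highest day mean being -0.34. NMU, the secreted peptide neuromedin U, had means from -0.67 on day 14 to -0.18 on day 4.

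FN1, fibronectin, and LGALS1, the secreted lectin galectin-1, are made by stromal as well as by tumor cells. FN1 means ran from -0.68 on day 2 to -0.056 on day 4, with an SD of 0.74 on day 2, where 1 tumor stood at -1.20 and the other at -0.16. LGALS1 means ran from -0.68 on day 14 to -0.051 on day 1. Another FN1 probe, of set 3, had means of -0.15, -0.11, 0.078, -0.28 and -0.61 on the 5 days, so that the FN1 probes differed most on day 2. The 6 named markers of fibroblasts and matrix (FN1, LGALS1, IGFBP7, MGP, MYLK and PMP22) had a median of -0.099, -0.075, 0.085, 0.043 and 0.032 on the 5 days, and their median in single tumors ranged from -0.30 to 0.41. In this list the brighter probe of set 3 stands for FN1. On day 14, 3 of these 6 were called lower (FN1 by that probe, LGALS1 and MGP) and 1 higher (MYLK), while the member probe of FN1 was not called, and on the other days none was called. Their part in the values of FN1 and LGALS1 was not tested.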

How the data were processed

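The intensity values deposited by the authors are spot and local background brightness of each channel, neither background-corrected nor normalized. The deposited log2 values are the authors' ratios of tumor and pool per array, made per the methods with limma (version not given), background correction, loess and quantile normalization. The scanner files were used, and the table was an alternative.

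Spots marked 0 (1 to 393 per array, meaning not stated) were left out. limma 3.58.1 (R 4.3.3, statmod 1.5.0) then ran normexp with an offset of 50, loess and quantile normalization. Ratios of dye swaps got the opposite sign, and each tumor's orientations were averaged. lmFit had 1 mean per day over all 16 tumors and the mouse as a random block (estimated correlation 0.0206), with eBayes and Benjamini-Hochberg adjustment over 9912 probes. No member lay in the lowest 0.25 of mean intensity. The number of arrays limits the precision, and spots had a median signal of 2.29 to 6.59 times their background, depending on the array. The fit was run on simulated data with a normal spread and no dye effect, which says nothing about dye effects in these arrays. Ratios from the scanner files and the table correlated with an r between 0.217 and 0.994 in size over the 9908 shared probes.

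Names come from the study's list. The brightest member probe stands for a gene. All 29 genes matched RefSeq, 25 by symbol and 4 by an older name. Per-tumor values are given for the 2 members of each function group with the lowest mean of the day means, those with several probes and those with day means of both signs. Values of OLFM1, GGH and SVIL probes of other sets were added after they were seen. Members, groups, gene lists and tests were chosen with earlier results of these data known. Alternatives covered background, normalization, spot marks, dim probes, blocks, orientations, the left-out array, the table, array weights, the samples in the fit and each tumor left out.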

Additional observations from a re-analysis of the deposited data

Results flagged for a closer look

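In 3 groups of 4 tumors 1 tumor stood apart from the others, by its gap to the nearest one as a share of the group's range. Chance puts about 1 in 20 groups past the limit used, and 87 groups were examined. MGLL was at -1.17 in day 7 replicate 2, while the other 3 tumors of thon day lay between -0.22 and -0.021. SFI1 was at -0.55 in day 4 replicate 3, the tumor with a forward array only, with the others between -0.11 and -0.017. TUBA8 was at -0.97 in day 1 replicate 1, with the others between -0.70 and -0.65.

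TK1 and TYMS were above the pool in every tumor of day 4 and below it in every tumor of days 1, 2 and 14. The mean of TK1 on day 4 was 0.40 above that of day 1, 0.55 above day 2 and 0.76 above day 14, and that of TYMS was 0.56, 0.53 and 0.81 above these days. The differences of day 4 from day 1 were not tested. Those of day 4 minus day 2 were fitted and not called. Day 14 minus day 4 was called, with -0.995 for KIAA0101 (limma adjusted p = 0.0356), -0.76 for TK1 (adjusted p = 0.0491) and -0.81 for TYMS (adjusted p = 0.0491), in a comparison of 2 with 4 tumors, and all tumors of day 14 were lower than all of day 4 for these 3 genes. These genes were listed for such courses, so the p-values are no independent evidence. The differences between days were not rerun in the alternative settings.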

How the results depend on the processing

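In 32 alternative settings, of which 16 leave out 1 tumor, the median of the members kept its sign on every day (160 of 160 values). Without background correction it was -0.42 on day 1 and -0.44 on day 2, and 5 members were called on day 7. Plain subtraction of the background gave -0.53 and 14 calls on day 2. Without normalization between arrays the medians of days 1 and 2 were -0.67 and -0.57, and with median centring in place of loess that of day 2 was -0.61. Leaving out dim probes called 5 members on day 7. With 1 mean per mouse, 6 were called on day 1 and 3 on day 4. Using the left-out array as labelled, 0 were called on days 4 and 7. The authors' table gave medians of -0.55 and -0.53 on days 1 and 2 and 0 calls on day 7, and array weights gave 1 call on day 2 and 7 on day 7. Forward arrays alone gave medians of -0.72, -0.63 and -0.41 on days 1, 2 and 7 and 11, 9 and 15 calls on days 2, 4 and 7. Dye-swap arrays alone gave -0.46, -0.55, -0.017 and -0.18 on days 1, 2, 4 and 7, with 7 calls on day 1, 0 on day 4 and 10 on day 14. With only the tumors of the day in the fit, 0 were called on days 2, 4 and 7. The causes were not tested, beyond the fewer tumors or arrays of some settings.

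Leaving out 1 tumor gave 12 to 25 calls on day 1, 0 to 11 on day 2 (median -0.61 to -0.60), 2 to 6 on day 4, 1 to 6 on day 7 and 0 to 18 on day 14. Of the 55 calls of a member on a day, 3 held in all 32 settings, those of B4GALT1, RUNX1 and SLC9A3R1 on day 1. Averaging all named probes of a gene turned SVIL on day 14 to 0.12. Over all settings the probes of the whole array called lower numbered 20 to 993 on day 1, 1 to 183 on day 2, 0 to 443 on day 4, 0 to 544 on day 7 and 15 to 685 on day 14, and those called higher 6 to 879, 0 to 141, 0 to 486, 0 to 500 and 15 to 715.

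Replicate numbers are shared across days but name tumors of different mice. Deviations from the day means correlated between -0.17 and 0.18 (median 0.027) in 24 pairs of tumors with the same number. In 76 pairs with other numbers they correlated between -0.28 and 0.25 (median -0.019). Pairs share tumors, so these correlations are not independent and cannot exclude a pairing. The numbers were not used to pair the tumors in the main fit. With the replicate block in place of the mouse, the median of day 2 was -0.57 and 0 members were called then, against 18 on day 1, 6 on day 4, 3 on day 7 and 11 on day 14.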
